A study of Mus musculus with 3 samples.

Results

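CD8+ T cells with at least 1 transcript of Cxcr6 were compared with CD8+ T cells without one, inside the same inflamed sciatic nerves. The cells were selected on measured transcript counts (unique molecular identifiers, UMIs). A cell was taken as a CD8+ T cell if it had at least 1 UMI of Cd3d, Cd3e or Cd3g and at least 1 of Cd8a or Cd8b1, no UMI of Cd4 or Cd79a, and at most 1 of C1qa, C1qb and C1qc together, with at most 5000 genes and 20% mitochondrial UMIs. This rule gave 2330 CD8+ T cells out of 13770 cells, of which 1293 were Cxcr6+ and 1037 were Cxcr6-. Library 1 held 661 Cxcr6+ and 388 Cxcr6- cells, library 2 held 555 and 462, and library 3 held 77 and 187.

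All libraries came from neuropathic NOD.AireGW/+ mice, which carry 1 partial loss-of-function allele of Aire, a gene of central tolerance, on the autoimmunity-prone NOD background. Female mice were used in the study, and no age was given in the sources used here. CD45+ cells, meaning immune cells in general, were sorted from digested sciatic nerves after perfusion and profiled by droplet single-cell RNA-Seq from the 5′ end of transcripts. A single mouse gave library 1, another gave library 2, and 2 mice were pooled for library 3, so their cells cannot be told apart. There was 1 group and no control group, so every comparison was made within libraries, and no effect of the neuropathy was tested.

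CXCR6 is a chemokine receptor whose ligand, CXCL16, is displayed on the surface of myeloid and other cells and can be shed from it by metalloproteases. The receptor is carried by activated and tissue-resident T cells in many organs, and it is low on naive T cells, which recirculate between blood and lymph nodes through CCR7 and the sphingosine receptor S1PR1. In CD8+ T cells of tumors and chronic infections, Cxcr6 transcripts often accompany inhibitory receptors and cytotoxic molecules.

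Total UMIs per library were between 3399733 and 55120460, with a median of 1726 to 4659 per cell. Library 3 was the shallowest. Pairs of libraries shared between 7 and 36 cell barcodes. Library 1 came without a gene list and took the row order of the others. Its total per row followed library 2 with a Spearman rho of 0.95 across genes in that order and 0.36 when the rows were shifted by 1.

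Stretches of promoter are shown because they belong to the gene that defined the split, to a gene that was higher in the Cxcr6+ cells and to a gene that was lower in them. Each is the 250 bases before the RefSeq transcript start (GRCm38.p6), 5′ to 3′ on the gene's strand. The regions are chr9:123806227-123806476 for Cxcr6, chr11:46454681-46454930 for Havcr2 and chr8:72318812-72319061 for Klf2, all on the plus strand. Capitals mark matches on either strand to TGTGGT (RUNX), to CACCC (KLF), to TGANTCA (AP-1), to CTTTGA (TCF) or to GGTGTGA (T-box).
Cxcr6: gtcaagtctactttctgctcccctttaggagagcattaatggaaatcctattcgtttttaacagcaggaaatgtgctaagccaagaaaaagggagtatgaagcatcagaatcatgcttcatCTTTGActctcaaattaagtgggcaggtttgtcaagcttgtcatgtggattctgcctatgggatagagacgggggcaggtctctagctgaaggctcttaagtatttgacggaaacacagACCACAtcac
Havcr2: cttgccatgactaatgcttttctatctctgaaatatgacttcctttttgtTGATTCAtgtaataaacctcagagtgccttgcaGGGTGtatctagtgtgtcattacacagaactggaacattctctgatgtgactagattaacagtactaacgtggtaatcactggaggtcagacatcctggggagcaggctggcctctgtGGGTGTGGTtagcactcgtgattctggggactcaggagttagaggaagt
Klf2: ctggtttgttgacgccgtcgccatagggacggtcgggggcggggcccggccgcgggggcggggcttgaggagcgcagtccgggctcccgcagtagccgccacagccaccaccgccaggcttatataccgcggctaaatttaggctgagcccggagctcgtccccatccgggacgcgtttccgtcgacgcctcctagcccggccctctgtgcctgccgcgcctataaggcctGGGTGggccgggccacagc

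The Cxcr6 stretch held 1 RUNX match, starting 10 bases before the transcript start, and 1 TCF match at 129 bases. The Havcr2 stretch held a RUNX match at 46 bases, which overlapped a KLF match at 49 bases, with a second KLF match at 167 bases and an AP-1 match at 200 bases. The Klf2 stretch held 1 KLF match at 19 bases, and none of the stretches held a T-box match. Among 32851 promoter stretches of the same length, 14.1% held the RUNX letters, 52.0% the KLF letters, 6.75% the AP-1 letters, 13.8% the TCF letters and 3.33% the T-box letters. These matches describe the letters only.

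Cxcr6 itself defined the sides and is given without a test. Its gene lies on chromosome 9 at 123806475 to 123811760 (mm10, plus strand), inside the span of Fyco1 on the minus strand, a gene of vesicle transport. In cells thinned to 1000 UMIs, Cxcr6 was at 1404, 828 and 895 CPM (UMIs scaled to 1000000 per sum, with a correction by the trimmed mean of M-values, TMM) on the Cxcr6+ side of libraries 1, 2 and 3. Fyco1 was at 34.6, 18.6 and 14.2 CPM there and at 57.2, 30.8 and 13.0 CPM in Cxcr6- cells, and it did not pass the test. Of the Cxcr6+ cells, 348 had 1 Cxcr6 UMI and 945 had more. The median was 4, 3 and 2 Cxcr6 UMIs per Cxcr6+ cell in libraries 1, 2 and 3.

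A UMI of Cxcr6 was found in 63.0% of the CD8+ T cells of library 1 (exact 95% interval, 60.0 to 65.9%), in 54.6% of library 2 (51.5 to 57.7%) and in 29.2% of library 3 (23.8 to 35.1%). After thinning every cell to 1000 UMIs the shares were 44.5%, 27.6% and 15.5%, in a random draw of its own. In the draw used for the comparison of sides, 413 of 932, 297 of 1004 and 44 of 245 cells had a Cxcr6 UMI. Conventional CD4+ T cells had 28.7%, 14.6% and 6.25% at the same depth. B cells, which should lack the receptor, gave the level of free RNA. At 1000 UMIs it was 1 of 190 cells (0.526%) in library 1, 0 of 289 in library 2 and 0 of 37 in library 3. These counts of 0 allow shares of up to 1.04% and 8.11% by the limit of 3 counts, and exact 95% upper limits of 1.27% and 9.49%. The share in CD8+ T cells was thus above that in B cells in each library, with the interval of library 3 (11.2 to 20.7%) above both limits set by its few B cells. Intervals and limits cover counting error only. Since a cell with few UMIs can miss a Cxcr6 transcript, the Cxcr6- side also holds cells in which the gene went undetected.

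Genes of the rule and other T cell markers were checked on both sides. The T cell receptor constant gene Trac was at 264, 296 and 241 CPM in Cxcr6+ cells and at 240, 289 and 261 CPM in Cxcr6- cells, and the T cell kinase Lck at 693, 710 and 440 CPM against 539, 657 and 502 CPM. The 7 T cell markers of the list that the rule did not use (Trac, Trbc1, Trbc2, Cd2, Thy1, Lck and Cd5) all had UMIs on the Cxcr6+ side, and summed to 2973 to 3329 CPM there against 2616 to 2936 CPM on the Cxcr6- side. These are markers of T cells in general, so the CD8 label rests on the genes of the rule. Sums over marker lists are UMIs per 1000000 without TMM, here and in the values given for other cell types. Cd8a, a gene of the rule, was at 1108 to 1231 CPM in Cxcr6+ cells and at 659 to 790 CPM in Cxcr6- cells. Cd8b1 was at 440 to 799 against 508 to 591 CPM. Cd3g, also of the rule, was at 1813 to 2173 against 972 to 1426 CPM. Cd3e was at 2045 to 2495 against 1773 to 1930 CPM, and Cd3d at 1077 to 1448 against 847 to 1297 CPM. Of the 2330 CD8+ T cells, 1438 had UMIs of both Cd8a and Cd8b1.

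Depth was matched for the counts compared, because Cxcr6+ cells held more UMIs. The sides themselves were set on all UMIs of a cell, before thinning, so they still depended on depth. The median was 4291, 4053 and 2505 UMIs per Cxcr6+ cell in libraries 1, 2 and 3, against 3824.5, 3110.5 and 1949 per Cxcr6- cell. Cells with under 1000 UMIs were left out (66 Cxcr6+ and 83 Cxcr6-), each remaining cell was thinned to 1000 UMIs, and counts were summed per library and side. This left 602, 552 and 73 Cxcr6+ cells and 330, 452 and 172 Cxcr6- cells. A single UMI was thereby worth 1.44 and 1.86 CPM in the Cxcr6+ cells of libraries 1 and 2 but 14.2 CPM in those of library 3, so that a level of 42.6 CPM there rests on 3 UMIs. The 3 libraries, not the cells, were the replicates (n = 3 pairs). A gene was called at an adjusted p under 0.05 (edgeR's quasi-likelihood test with the library as a block, Benjamini-Hochberg adjustment over all genes tested).

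Of 4925 genes tested, 245 were called (4.97%), 99 of them higher in Cxcr6+ cells (2.01%) and 146 lower (2.96%). Genes of cytosolic ribosomal proteins, given below, made up 62 of the 146. Counts per gene list below are to be read beside these shares, and a count of 1 rests on a single gene. The lists were chosen with earlier results of these data known. Among the called genes, 238 moved the same way in all 3 libraries. The median log2 difference over all genes tested was -0.02. Without TMM scaling the split turned to 142 higher and 112 lower. All 3 Cxcr6+ sums lay above all 3 Cxcr6- sums for 176 genes (3.57%) and below them for 228 genes (4.63%). Library 1, which held the most Cxcr6+ cells, weighed most: without it 80 genes were called, without library 2 156, and without library 3 166. DESeq2 called 94. Without the library as a block edgeR called 0 genes, with 158 at an unadjusted p under 0.05.

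**Figure D1:**
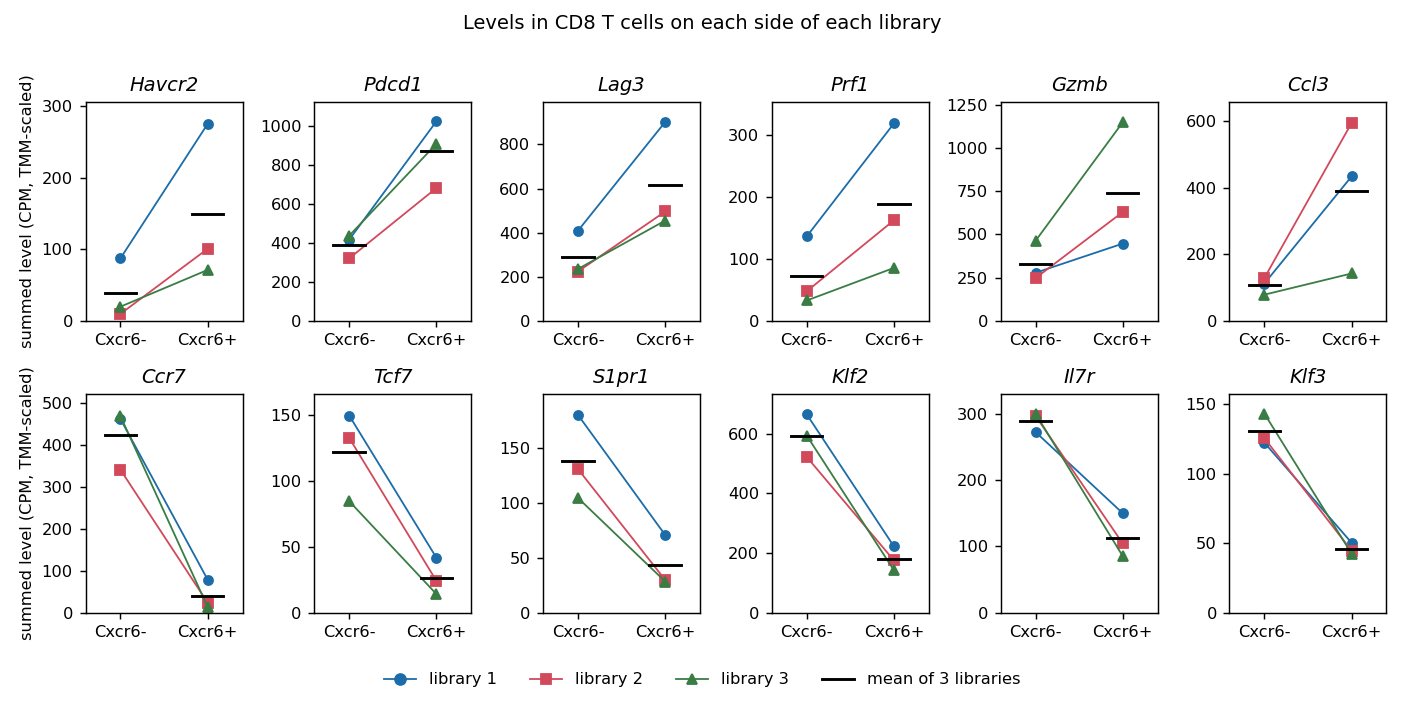
Summed level (y axis, CPM with TMM scaling, from 0) of 12 genes in Cxcr6- and Cxcr6+ CD8+ T cells (x axis), with 1 line per library and a black bar for the mean of 3 libraries. Every line of the top row rises from Cxcr6- to Cxcr6+ and every line of the bottom row falls, with Ccr7 at 341.6 to 469 CPM in Cxcr6- cells and 14.2 to 79.3 CPM in Cxcr6+ cells.

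Most genes of egress and quiescence were lower in Cxcr6+ cells: 7 of 11 tested members were called lower and none higher, with a median log2 difference of -1.33 against -0.02 over all genes. The chemokine receptor Ccr7, which guides T cells into lymph nodes, was at 79.3, 24.2 and 14.2 CPM in the Cxcr6+ cells of libraries 1, 2 and 3 and at 463, 341.6 and 469 CPM in the Cxcr6- cells. The sides did not overlap, and the fall was 8.23-fold (log2 difference -3.04 ± 0.22 SE, adjusted p = 3.15e-08 by edgeR's quasi-likelihood test). Each SE of a log2 difference given here was derived from that difference and its test statistic, and is not a separate measure of spread over libraries.

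The receptor S1pr1, which lets T cells leave tissue toward sphingosine 1-phosphate in blood and lymph, was at 70.6, 29.8 and 28.4 CPM in Cxcr6+ cells and 180, 131 and 104 CPM in Cxcr6- cells (log2 difference -1.63 ± 0.23, adjusted p = 9.49e-05, edgeR). Klf2, a transcription factor that drives S1pr1, was at 222, 175 and 142 CPM against 664, 522 and 593 CPM (-1.62 ± 0.13, adjusted p = 6.81e-08, edgeR). Both genes were lower on the Cxcr6+ side of every library, without overlap. Tcf7, which encodes TCF-1, the factor of memory-like and self-renewing T cells, was at 41.8, 24.2 and 14.2 CPM against 150, 133 and 84.8 CPM (-2.09 ± 0.25, adjusted p = 1.50e-05, edgeR). Klf3 fell with a log2 difference of -1.40, and Il7r, the receptor for the survival cytokine IL-7, with -1.21. Slamf6, an adhesion receptor of memory-like T cells, fell by 1.33 on the log2 scale, but its call was lost without library 1 (-1.62, adjusted p = 0.051, edgeR). Lef1, Satb1, Foxo1 and S1pr4 had log2 differences of -0.74, -0.60, -0.21 and 0.06 and did not pass the test.

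Ccr7, Klf2 and S1pr1 are also transcribed by B cells, in which 40.8 to 70.0% of cells held a Ccr7 UMI at 1000 UMIs. B cell markers other than Igkc summed to 74.8, 21.7 and 13.7 CPM in Cxcr6+ cells and to 139, 84.1 and 52.3 CPM in Cxcr6- cells, and Pax5 was not seen on either side. Every cell with a UMI of a macrophage or B cell marker, Trdc, Sox13 or Ncr1 was then left out. This kept 319, 168 and 48 Cxcr6+ cells and 162, 144 and 134 Cxcr6- cells in libraries 1, 2 and 3. Dendritic cell markers were not part of this filter. Among the cells kept, Ccr7 differed by -3.10, Klf2 by -1.91, S1pr1 by -1.79 and Tcf7 by -2.12 on the log2 scale, all past the threshold.

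Inhibitory receptors moved the other way. Of 11 tested members, 5 were higher in Cxcr6+ cells and none was lower, and all 11 log2 differences were above 0 (median 0.68). Over all genes tested, 2.01% were higher and 2.96% lower. Havcr2, which encodes TIM-3, was at 275, 101 and 71.0 CPM in Cxcr6+ cells and 87.1, 9.49 and 19.6 CPM in Cxcr6- cells. It rose 4.03-fold (log2 difference 2.01 ± 0.27, adjusted p = 5.54e-05, edgeR), in each library, though the Cxcr6- cells of library 1 were above the Cxcr6+ cells of library 3. Pdcd1, which encodes PD-1, was at 1025, 682 and 909 CPM against 417, 320.2 and 437 CPM, without overlap (1.18 ± 0.10, adjusted p = 3.42e-07, edgeR). Lag3, a receptor for MHC class II, was at 902, 496 and 455 CPM against 408, 223 and 235 CPM, also without overlap (1.12 ± 0.11, adjusted p = 1.89e-06, edgeR).

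Entpd1, which encodes the ectonucleotidase CD39, was at 319, 101 and 56.8 CPM against 101, 21.4 and 26.1 CPM (log2 difference 1.76 ± 0.22, adjusted p = 3.31e-05, edgeR). Its call was lost without library 1 (1.97, adjusted p = 0.061, edgeR). Ctla4, the CD28 antagonist, rose by less, with 874, 721 and 582 CPM against 528, 519.5 and 411 CPM (0.59 ± 0.10, adjusted p = 0.0010, edgeR), and was also not called without library 1 (0.49, adjusted p = 0.098, edgeR). Tigit, Cd160, Cd244a, Vsir, Cd96 and Lilrb4a were between 0.18 and 1.08 and did not pass.

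Cytotoxicity genes were higher in part. Of 13 tested members, 6 were called higher and none lower, with a median log2 difference of 0.37, while 2.01% of all genes tested were higher. With UMIs of both Cd8a and Cd8b1 required in each cell, 4 of 13 were higher and 1 was lower. Prf1, which encodes the pore-forming perforin, was at 319, 162 and 85.2 CPM in Cxcr6+ cells and 136, 47.4 and 32.6 CPM in Cxcr6- cells (1.41 ± 0.20, adjusted p = 8.37e-05, edgeR). Gzmb, a granzyme that triggers apoptosis, was at 447, 630.0 and 1150.0 CPM against 278, 247 and 463 CPM (1.10 ± 0.13, adjusted p = 1.99e-05, edgeR). Both rose in each library, and for both the range of the sides overlapped between libraries. Sides were also set from thinned counts, so that all cells were read at the same depth. The difference in Gzmb then shrank to 0.55 and stayed past the threshold. This setting, here and below, moved cells whose Cxcr6 UMIs were lost in thinning to the Cxcr6- side. That side then held 519, 707 and 201 cells in libraries 1, 2 and 3, against 330, 452 and 172. The part of this move in the changed differences was not tested.

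Nkg7, a granule membrane protein, was at 3141, 3834 and 3111 CPM against 1609, 2282 and 2380.0 CPM, without overlap (0.75 ± 0.08, adjusted p = 2.46e-06, edgeR). Gzma, another granzyme, was at 183, 365 and 966 CPM against 49.0, 237 and 326 CPM (1.16 ± 0.19, adjusted p = 4.61e-04, edgeR). Gzma lost its call without library 1 (0.96, adjusted p = 0.061, edgeR). The death ligands Tnfsf10 (TRAIL) and Fasl were called with log2 differences of 1.33 and 0.51, and Fasl fell short without any 1 library (0.45, 0.54 and 0.53 without libraries 1, 2 and 3). Tnfsf10 was not called without library 1 (1.36, adjusted p = 0.19) or library 2 (1.34, adjusted p = 0.051, both edgeR). Gzmk, a granzyme typical of less cytotoxic effector memory cells, did not follow: it was at 758, 485 and 696 CPM in Cxcr6+ cells and 550.0, 591 and 835 CPM in Cxcr6- cells, a log2 difference of 0.04 ± 0.13 that took both signs among the libraries.

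NK receptors on CD8+ T cells recognise MHC class I and related molecules. Of 9 tested, 4 were called higher and none lower (median 0.61), while 2.01% of all genes tested were higher. The lectin Klrd1 (CD94) was at 588, 549.8 and 526 CPM against 302, 244 and 313 CPM, without overlap (1.01 ± 0.12, adjusted p = 1.84e-05, edgeR), and its partner chain Klrc1 (NKG2A) was at 715, 451 and 937 CPM against 452, 285 and 613 CPM (0.65 ± 0.11, adjusted p = 4.61e-04, edgeR). These chains form 1 inhibitory receptor, and both rose in every library. Klre1 and Klra5 were called at 1.10 and 2.23. Klre1 was not called without library 1 (1.24, adjusted p = 0.17, edgeR), and Klra5 not without library 2 (1.58, adjusted p = 0.18, edgeR). Klra genes are near-identical copies that differ between mouse strains, so the assignment of Klra5 reads to that gene is uncertain. The adaptors Tyrobp and Fcer1g, which NK and γδ T cells express strongly, did not pass. They were at -0.78 (adjusted p = 0.059) and 0.61 (adjusted p = 0.30, both edgeR). Klrk1, Klrc2 and Klra1 were at 0.35, 0.55 and -0.59 and did not pass either. Some alternatives called list members lower: 4 were higher and 2 lower at 2000 UMIs, and 3 higher and 2 lower without library 2.

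**Figure D2:**
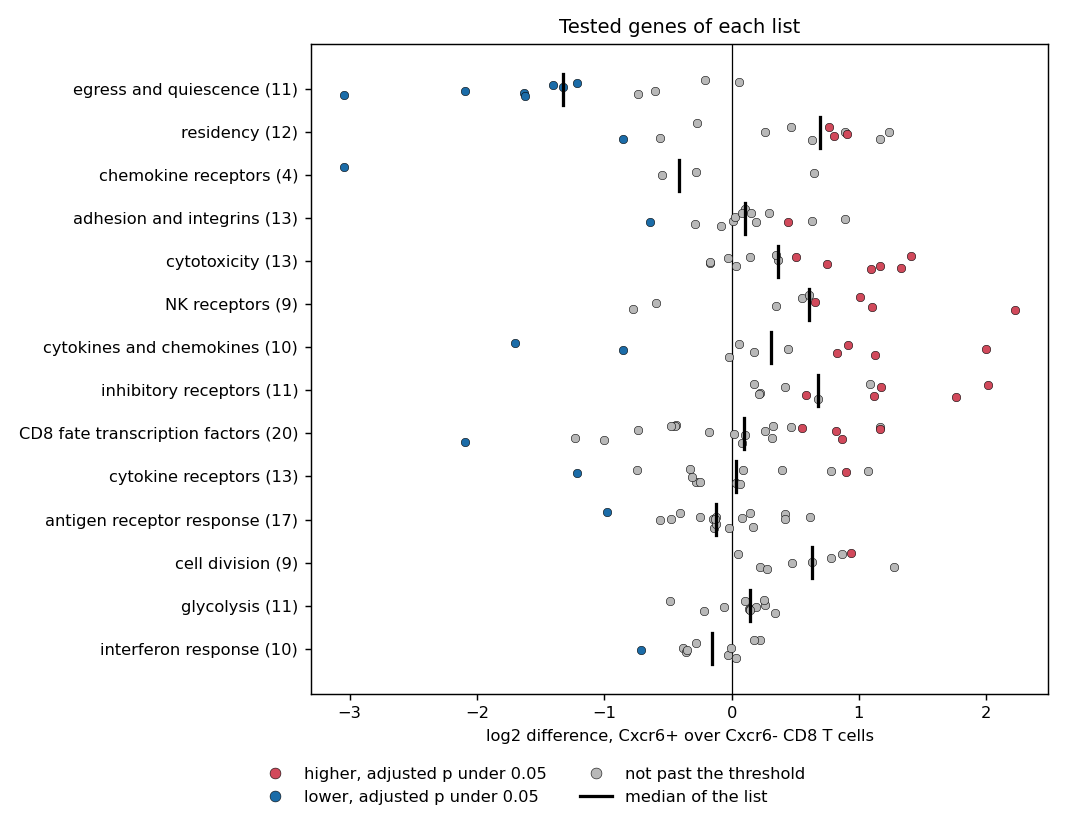
Log2 difference between Cxcr6+ and Cxcr6- CD8+ T cells (x axis) of every tested gene of 14 lists (y axis, number of tested genes in parentheses), coloured by the edgeR call, with a black bar at the median of each list. The egress and quiescence genes sit mostly left of 0 (median -1.33), the inhibitory receptors all right of 0 (median 0.68), and the antigen receptor response genes around 0 (median -0.12).

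Among cytokines and chemokines, 4 of 10 tested genes were higher and 2 were lower. The higher genes were the inflammatory chemokines Ccl3, Ccl4 and Ccl5 and interferon gamma. Ccl3 was at 434, 595 and 142 CPM in Cxcr6+ cells and 112, 128 and 78.2 CPM in Cxcr6- cells, without overlap (log2 difference 1.99 ± 0.17, adjusted p = 2.21e-07, edgeR). Ccl4 was at 1012, 2095 and 952 CPM against 422, 880.0 and 698 CPM, without overlap (1.12 ± 0.11, adjusted p = 8.80e-07, edgeR). Ccl5 was the most abundant of them, with 16600, 39500 and 54870 CPM against 7717, 23400 and 29740 CPM. It rose in each library (0.91 ± 0.06, adjusted p = 3.17e-09, edgeR), while the level in Cxcr6- cells of libraries 2 and 3 was above that in Cxcr6+ cells of library 1. Ifng, which encodes interferon gamma, was called at 0.82, but not without library 1 (0.69, adjusted p = 0.081, edgeR).

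The lower genes were Xcl1, which attracts cross-presenting dendritic cells, and Cxcl10, a ligand of CXCR3. Xcl1 was at 146, 179 and 56.8 CPM against 335, 254 and 84.8 CPM (log2 difference -0.85 ± 0.17, adjusted p = 0.0048, edgeR). Its call was lost without library 1 (-0.51, adjusted p = 0.25, edgeR) and without dividing cells (-0.25). Cxcl10 was at 38.9 and 18.6 CPM in Cxcr6+ cells of libraries 1 and 2 and was not seen in library 3, against 114, 73.5 and 6.52 CPM (-1.70 ± 0.30, adjusted p = 9.81e-04, edgeR). Macrophages and dendritic cells transcribe Cxcl10 strongly, and their markers were also lower in sum on the Cxcr6+ side of each library, at 155, 337 and 13.7 CPM against 258, 389 and 40.7 CPM for macrophage markers. The part of such RNA in the fall of Cxcl10 was not tested.

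Chemokine receptors other than Cxcr6 were mostly too low to test. Of 14 in the list, 4 were tested, none was higher and 1 was lower. The lower gene was Ccr7, above. Ccr2, a receptor of inflammatory homing, was at 334, 173 and 71.0 CPM against 207, 87.8 and 143 CPM, so that library 3 went against the others. Its log2 difference of 0.65 fell short (adjusted p = 0.068, edgeR) but was called in 9 of 16 alternatives, among them without library 3 (0.82, adjusted p = 0.023, edgeR). Cxcr3, the receptor for CXCL10, was at 172, 116 and 170.4 CPM against 207, 168 and 104 CPM (-0.28 ± 0.19, adjusted p = 0.55, edgeR), higher on the Cxcr6+ side in library 3 only.

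The residency list, which holds genes of tissue-resident memory T cells, gave a mixed picture. Of 12 tested genes, 3 were higher and 1 (Xcl1, above) was lower, with a median log2 difference of 0.70. Rgs1, a regulator that dampens chemokine receptor signaling, was at 1176, 1588 and 3778 CPM against 787, 932 and 1917 CPM (0.76 ± 0.08, adjusted p = 2.93e-06, edgeR) and rose in each library. Rgs2, of the same family, was called at 0.80 and Litaf at 0.90. The call of Rgs2 was lost without library 1 (0.72, adjusted p = 0.11, edgeR), and that of Litaf without library 2 (0.70, adjusted p = 0.16) or library 3 (0.68, adjusted p = 0.22, both edgeR). The defining integrins were below the threshold. Itgae, which encodes CD103, was at 98.0, 119 and 56.8 CPM against 104, 42.7 and 19.6 CPM (0.63 ± 0.28, adjusted p = 0.28, edgeR), and Itga1, which encodes CD49a, was at 0.89 ± 0.36 (adjusted p = 0.22, edgeR).

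Cd69, which keeps S1PR1 off the cell surface, was at 275, 112 and 71.0 CPM in Cxcr6+ cells and 357, 206 and 91.3 CPM in Cxcr6- cells, lower in each library but short of the threshold (-0.56 ± 0.16, adjusted p = 0.054, edgeR). Prdm1, which encodes the repressor BLIMP-1, was higher in libraries 1 and 2 and not seen in the Cxcr6+ cells of library 3 (1.17 ± 0.34, adjusted p = 0.053, edgeR). Prdm1 was called in 8 of the 13 alternatives that could be fitted, and was at 0.45 with other-lineage cells left out (adjusted p = 0.77, edgeR). Among adhesion genes, 1 of 13 tested was higher (Itgb2, the CD18 chain, 0.44) and 1 was lower (Itgb7, a chain of gut-homing integrins, -0.64). Itgb2 fell short without any 1 library (0.32, 0.50 and 0.48 without libraries 1, 2 and 3), and Itgb7 was not called without library 1 (-0.51, adjusted p = 0.33) or library 3 (-0.67, adjusted p = 0.050, both edgeR).

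Of 20 transcription factors of CD8+ T cell fate, 4 were higher and 1 (Tcf7, above) was lower, with a median of 0.10. The higher genes included Tox and Tox2, known from exhausted T cells, Id2, an inhibitor of E proteins in effector cells, and Batf, an AP-1 family factor. Id2 was at 382, 270.3 and 227 CPM against 172, 183 and 124 CPM, without overlap (0.87 ± 0.16, adjusted p = 0.0017, edgeR). Tox was at 304, 175 and 99.4 CPM against 155, 109 and 71.7 CPM (0.82 ± 0.17, adjusted p = 0.0060, edgeR). Tox2 was called at 1.17 and Batf at 0.55. Without library 1 the log2 differences were 0.62 for Id2, 0.66 for Tox, 1.15 for Tox2 and 0.51 for Batf, none past the threshold, and Tox2 and Batf also fell short without library 2 (1.26 and 0.57) or library 3 (1.15 and 0.60). Tbx21 and Eomes, the T-box factors of effector and memory CD8+ T cells, were at 0.32 and 0.08 and did not pass.

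Among cytokine receptors, 1 was called higher and 1 lower. Il2rb, the chain shared by the IL-2 and IL-15 receptors, was at 771, 535 and 611 CPM in Cxcr6+ cells and 455, 266 and 293 CPM in Cxcr6- cells, without overlap (0.90 ± 0.11, adjusted p = 3.25e-05, edgeR). Il7r was at 150, 104 and 85.2 CPM against 272, 297 and 300 CPM, without overlap (-1.21 ± 0.18, adjusted p = 1.45e-04, edgeR). The other 11 of 13 tested receptors were not called, among them Il21r, the receptor for IL-21, at 493, 224 and 369 CPM against 324, 192 and 333 CPM (0.40 ± 0.14, adjusted p = 0.12, edgeR). Neither of the tested sheddases of CXCL16, Adam10 (0.35) and Adam17 (-0.03), passed the test. Cxcl16 itself was below the filter on low counts.

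Genes induced by recent antigen receptor signaling did not move as a group. Of 17 tested, none was higher and 1 was lower (median -0.12). The lower gene was Tnfrsf4, which encodes the costimulator OX40, at 160, 54.1 and 28.4 CPM against 223, 164 and 157 CPM (-0.98 ± 0.23, adjusted p = 0.013, edgeR). It was not called without library 2 (-0.65, adjusted p = 0.11) or library 3 (-0.87, adjusted p = 0.096, both edgeR). Nr4a1, Nr4a2 and Nr4a3, orphan receptors that rise within hours of stimulation, were at -0.15, 0.17 and -0.25.

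Outside these lists, the largest differences by the naming rule belonged to genes of several kinds. S100a4, a calcium-binding protein of effector and memory T cells, was at 725, 1650.0 and 1136 CPM in Cxcr6+ cells and 210, 645 and 411 CPM in Cxcr6- cells, without overlap (1.50 ± 0.11, adjusted p = 2.15e-08, edgeR). Its difference was 0.94 when the sides were set from thinned counts. Cd38, another ectoenzyme, was at 190, 132 and 99.4 CPM against 73.5, 64.0 and 32.6 CPM (1.25 ± 0.21, adjusted p = 8.58e-04, edgeR). The call of Cd38 was lost without library 1 (1.13, adjusted p = 0.10, edgeR). Fgl2, a secreted ligand of an inhibitory Fc receptor, was called at 1.22 and fell to 0.59 without library 2 (adjusted p = 0.49, edgeR).

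The rest of the higher genes were low. Each was higher on the Cxcr6+ side of all 3 libraries, but the calls were lost in some alternatives. Bcl2l15, a relative of BCL-2, was at 50.5, 91.3 and 85.2 CPM against 21.8, 16.6 and 45.6 CPM (1.68). It was not called without library 1 (1.92, adjusted p = 0.085) or library 2 (1.09, adjusted p = 0.31), nor with another random draw of the thinning (0.95, adjusted p = 0.14, all edgeR). The secreted factor Metrnl was at 1.48, and was not called without library 1 (1.65) or library 2 (1.17). The uncharacterised 1700017B05Rik was at 1.36, was not called without any 1 library (1.14 to 1.85), and gave 0.50 with the other draw (adjusted p = 0.51, edgeR).

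The lower genes of this kind were Ramp3, Thada, Asap1, Ehd3, Elmsan1 and Rflnb. Ramp3, which pairs with receptors of the calcitonin family, was at 20.2, 11.2 and 28.4 CPM against 92.6, 38.0 and 117 CPM (-2.04 ± 0.34, adjusted p = 5.43e-04, edgeR). Thada was at 33.2, 22.4 and 28.4 CPM against 112, 59.3 and 143 CPM (-1.68 ± 0.28, adjusted p = 5.81e-04, edgeR). For all 6 the sides did not overlap. Their calls rested on 3 libraries, however. Without library 1, Ramp3 (-1.81), Thada (-1.62), Asap1 (-1.93), Elmsan1 (-0.94) and Rflnb (-0.95) were not called. Without library 2, Asap1 (-1.03) and Ehd3 (-1.02) were not called, and without library 3, Ehd3 (-1.38) and Rflnb (-1.19) were not. With all libraries Asap1, a GTPase-activating protein of membrane traffic, was at -1.47, Ehd3, of endosome recycling, at -1.45, Elmsan1, of a histone deacetylase complex, at -1.32, and Rflnb, which binds filamin, at -1.30. Elmsan1 was called in 9 of 16 alternatives and shrank to -0.39 with another random draw and to -0.42 without dividing cells.

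Genes of cytosolic ribosomal proteins were lower in Cxcr6+ cells. Of 80 tested, none was higher and 62 were lower, with a median log2 difference of -0.33. Many of these genes have near-identical pseudogenes, so single members are uncertain. They took 19.6, 25.0 and 25.8% of UMIs in the Cxcr6+ cells of libraries 1, 2 and 3 and 24.1, 30.1 and 31.9% in the Cxcr6- cells, a mean difference of -5.21 ± 0.81 percentage points (SD, n = 3 libraries, lower in 3 of 3). The exact permutation test of sides within libraries gave p = 0.25 two-sided, the smallest that 3 libraries allow. Without TMM scaling 53 of the 80 were lower and none was higher, and without library 1 27 were lower and none higher.

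Division was the other cell-wide readout. At 1000 UMIs, cells with a UMI of Mki67, Top2a, Cdk1 or Birc5 were 11.96, 8.51 and 5.48% of the Cxcr6+ cells and 7.27, 4.65 and 4.65% of the Cxcr6- cells, more frequent on the Cxcr6+ side of each library (exact permutation p = 0.25, the smallest possible). Counted on all UMIs of these cells, the shares were 27.2, 21.2 and 11.0% against 23.0, 11.9 and 8.14%. All 9 tested division genes were above 0, with a median of 0.63, but only Stmn1, a microtubule regulator, was called (0.94 ± 0.22, adjusted p = 0.011, edgeR). Stmn1 was not called without library 1 (0.85, adjusted p = 0.17) or library 2 (0.88, adjusted p = 0.15, both edgeR). The direction of the group turned when the sides were set from thinned counts, with a median of -0.19 over 9 genes and none called, while without thinning 14 of 16 were called higher (median 1.12). With cells holding a UMI of any of the 4 genes left out, the median was -0.145 over 4 tested genes. Genes detected per cell at 1000 UMIs had a median of 626, 569 and 548 in Cxcr6+ cells and 607.5, 551 and 538.5 in Cxcr6- cells.

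Neither glycolysis nor the interferon response moved as a group. None of 11 tested glycolysis genes was called (edgeR), with log2 differences from -0.49 to 0.34. Of 10 tested interferon-stimulated genes, none was higher and 1, Irf7, a regulator of type I interferon, was lower (-0.71 ± 0.19, adjusted p = 0.028, edgeR). Irf7 fell short when any library was left out (-0.77, -0.64 and -0.72 without libraries 1, 2 and 3).

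Markers of other cells moved with the split in part. The γδ T cell constant genes Tcrg-C2 and Tcrg-C4 were at 1.30 and 1.35 and did not pass, and the γδ list summed to 183, 187 and 123 CPM in Cxcr6+ cells against 39.4, 66.4 and 75.6 CPM, with UMIs of all 8 markers. At 1000 UMIs, a UMI of Trdc or Sox13 was found in 1.50, 3.99 and 1.37% of Cxcr6+ cells and in 0.909, 1.33 and 0% of Cxcr6- cells. On all UMIs of these cells it was 4.98, 14.1 and 2.74% against 5.45, 3.98 and 0.581%, so library 1 took the other order. NK receptor genes summed to 2593, 1900.0 and 2096 CPM against 2197, 1007 and 1081 CPM. With cells holding Trdc, Sox13, Ncr1, macrophage or B cell UMIs left out, Klrd1 differed by 1.08, Prf1 by 1.29, Gzmb by 1.20 and Ccl3 by 1.77, all past the threshold. Dendritic cell markers summed to 156, 384 and 0 CPM against 352, 389 and 46.5 CPM, and CD4+ T cell markers to 302, 132 and 41.1 CPM against 379, 217 and 180 CPM. Of 7 Schwann cell and myelin markers, Prx and Sox10 were not seen on either side.

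The call of the immunoglobulin gene Igkc, a light chain of B and plasma cells, rested on 1 cell. Igkc was at 72.1, 44.7 and 114 CPM in Cxcr6+ cells and 1231, 73.5 and 104 CPM in Cxcr6- cells (-3.11 ± 0.40, adjusted p = 4.34e-05, edgeR). Of its 452 UMIs in the Cxcr6- cells of library 1, 423 lay in a single cell, and without library 1 the difference was -0.46 (adjusted p = 0.66, edgeR). Ighm, the heavy chain of IgM, was called at -1.24 and fell short without library 2 (-0.94, adjusted p = 0.13) or library 3 (-1.22, adjusted p = 0.057, both edgeR).

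Of 23 tested V genes of the T cell receptor, none was higher and 3 were lower, while 2.96% of all genes tested were lower. Trbv3 was at 59.1, 48.5 and 71.0 CPM against 81.7, 116 and 163 CPM (-0.90 ± 0.24, adjusted p = 0.031, edgeR). Trbv17 was at 10.1, 11.2 and 128 CPM against 70.8, 102 and 13.0 CPM (-2.04), so library 3 went against the others, and Trav6n-6 was at -2.01 from 9.20 CPM on average in Cxcr6+ cells. None of them held without each library in turn: Trbv3 gave -1.24, -0.65 and -0.84 without libraries 1, 2 and 3, Trbv17 gave -1.40 and -1.06 without libraries 1 and 2, and Trav6n-6 gave -2.05 without library 3. Reads of V genes of the NOD strain were counted on the mm10 reference, and near-identical copies make single V genes uncertain.

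The values just inside and just outside the threshold of the rule are given without a test. Cxcr6 UMIs were counted before the cells were thinned to 1000 UMIs. There were 330, 452 and 172 CD8+ T cells with 0 Cxcr6 UMIs in libraries 1, 2 and 3. With 1 there were 113, 172 and 31, and with 2 or more 489, 380 and 42. Ccr7 was at 417 ± 98.3 CPM (without TMM, SD, n = 3 libraries) at 0 UMIs, 84.2 ± 60.4 at 1 and 26.8 ± 44.1 at 2 or more. Pdcd1 was at 384 ± 82.6, 594 ± 147 and 1018 ± 281 CPM. Both were ordered the same way in each library, as were Klf2 (585, 334 and 132 CPM on average) and Lag3 (291, 430 and 730.4 CPM). Gzmb and Gzma were highest on average in cells with 1 UMI (858 and 726 CPM), with an SD over libraries of 808 and 733 CPM. Of the 24 genes named for the size of their difference, 21 had cells with 1 UMI between the others on average, but only 3 rose and 8 fell in that order in each of the 3 libraries. The 24 were chosen for the difference between the sides, so these counts are a description.

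**Figure D3:**
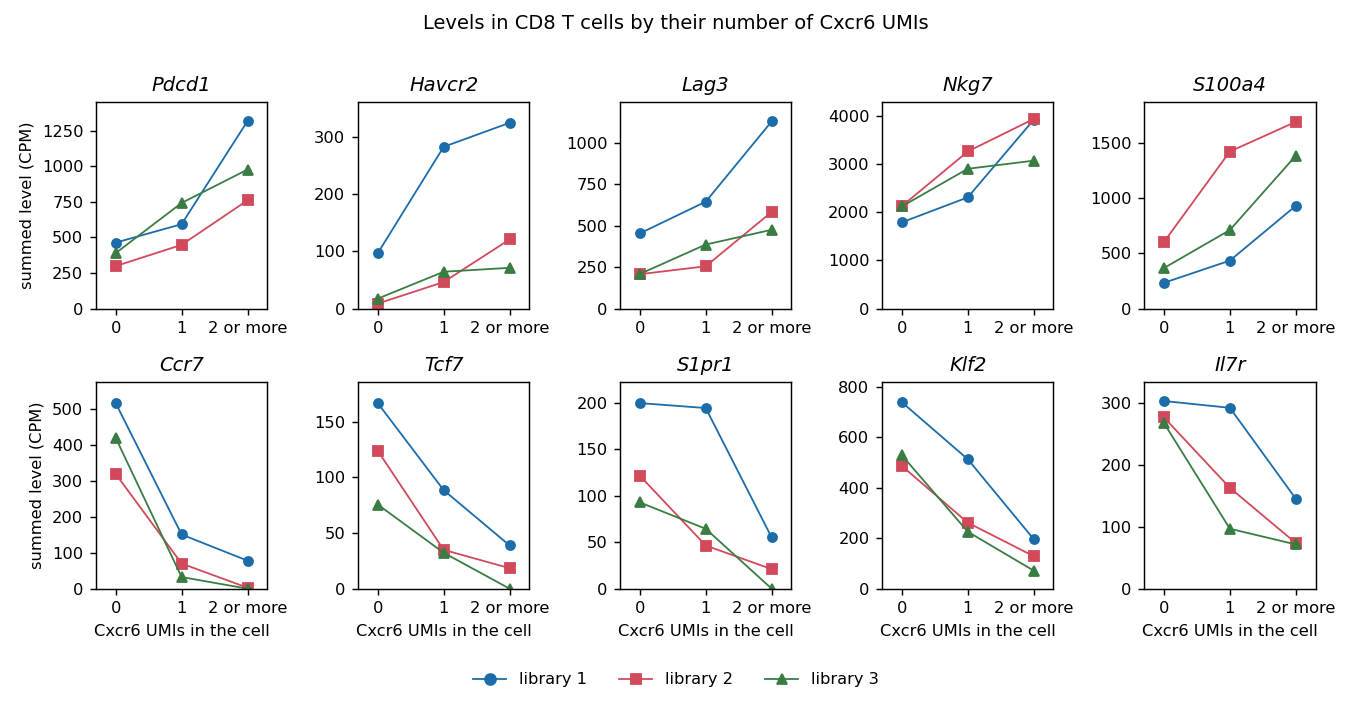
Summed level (y axis, CPM without TMM scaling, from 0) of 10 genes in CD8+ T cells with 0, 1 and 2 or more Cxcr6 UMIs (x axis), 1 line per library. The genes of the top row go up with the number of Cxcr6 UMIs in each library and those of the bottom row go down, with cells of 1 UMI between the others (Ccr7 at 417, 84.2 and 26.8 CPM on average). Only genes with this order are drawn. Of the 24 genes named for their size, 3 rose and 8 fell in this order in each library.

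The same split was made in conventional CD4+ T cells (Cd4 UMIs, no Cd8a, Cd8b1 or Foxp3 UMI), to ask which differences were particular to CD8+ T cells. After thinning there were 231, 216 and 18 Cxcr6+ and 296, 580 and 142 Cxcr6- CD4+ T cells in libraries 1, 2 and 3, so library 3 added little. Of 4766 genes tested for a difference between the CD8 and the CD4 contrast, 12 were called (0.252%, edgeR's interaction term). The CD8 value minus the CD4 value was above 0 for 4 of them and below 0 for 8. Of the 24 genes named for their size in CD8+ T cells, 1, Ccl3, was among the 12. Among the rest, the difference of contrasts was -0.08 ± 0.22 for Pdcd1, 0.17 ± 0.57 for Havcr2, -0.08 ± 0.41 for Tcf7, 0.14 ± 0.35 for S1pr1 and -0.79 ± 0.32 for Ccr7 (± SE). None of these passed the test, and standard errors of this size do not show that the contrasts are alike.

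Ccl3 rose with Cxcr6 in CD8+ T cells (1.99 ± 0.17), while in CD4+ T cells the contrast was 0.33 ± 0.18. Scaled over all 12 sums, it was at 161, 477 and 0 CPM in Cxcr6+ and 197, 294 and 54.4 CPM in Cxcr6- CD4+ T cells. The difference of contrasts was 1.70 ± 0.26 (adjusted p = 4.89e-07, edgeR), and it stayed past the threshold without each library in turn (1.39 to 2.11), but not when the sides were set from thinned counts (1.01, adjusted p = 0.28, edgeR). Nkg7 and Gzmk went the other way. Nkg7 rose by 1.65 ± 0.15 in CD4+ and 0.75 ± 0.08 in CD8+ T cells (difference -0.90 ± 0.21, adjusted p = 0.019, edgeR). Its Cxcr6- level was 1681 to 2506 CPM in CD8+ and 303 to 596 CPM in CD4+ T cells. Gzmk was at 1.19 ± 0.23 in CD4+ and 0.04 ± 0.13 in CD8+ T cells (difference -1.13 ± 0.27, adjusted p = 0.023, edgeR). Nkg7 was not called without library 2 (-1.03) or library 3 (-0.78), and Gzmk not without any 1 library (-1.20 to -1.15).

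**Figure D4:**
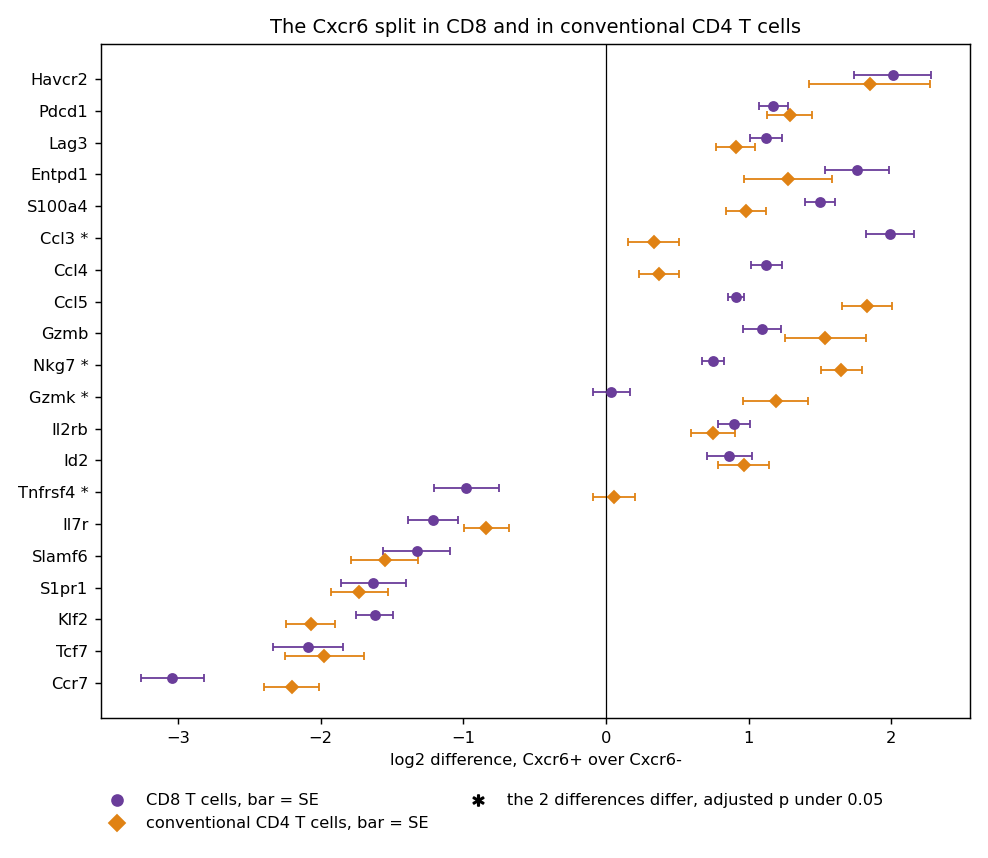
Log2 difference between Cxcr6+ and Cxcr6- cells (x axis) of 20 genes (y axis) in CD8+ T cells (circles) and conventional CD4+ T cells (diamonds), with SE bars and a star where the difference of the contrasts was called by edgeR. Pdcd1 (1.18 and 1.29) and Tcf7 (-2.09 and -1.97) lie close together, and the starred Ccl3 (1.99 and 0.33), Nkg7 (0.75 and 1.65), Gzmk (0.04 and 1.19) and Tnfrsf4 (-0.98 and 0.06) lie apart.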

How the data were processed

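Whole-number UMI counts per gene and cell were used as the authors deposited them. According to the submitters' processing notes and the methods, reads had been aligned by the authors to mm10 with Cell Ranger (5.0.1 for library 1, 6.1.2 for libraries 2 and 3), and its filtered cells kept. Strand handling was not given in the sources used here. Every CD8+ T cell held at least 503 UMIs.

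Members and gene lists were chosen with earlier results of these data known. No doublet caller was run, and the gates on Cd4, Cd79a and C1q genes stood in for it. Cells were thinned without replacement to 1000 UMIs with fixed seeds, leaving out shallower cells. Counts were summed per library and side and tested with edgeR 4.0.16 in R 4.3.3 (glmQLFit and glmQLFTest, TMM, filterByExpr, library as a block) and with DESeq2 1.42.0 as an alternative. The procedure was tested on simulated data. The block is the mouse or pool that both sides share. Deviations from the side means, on log2(CPM + 10) over 4925 genes, had a Pearson r of 0.622, 0.412 and 0.336 within libraries 1, 2 and 3. The edgeR p-values rest on counting error and on the spread of the paired differences over libraries, which was estimated in part across all genes. They come from 3 pairs only. Shares carry exact 95% binomial intervals.

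Genes named for their size were the 12 largest log2 differences in each direction among called genes of at least 50 CPM on average that moved the same way in all libraries. Genes of the rule, ribosomal protein genes and antigen receptor genes were not among them. Other named genes came from 23 lists, less 3 genes that are not reported here. Aldoa and Mx1 were not matched. Genes named for the CD4 comparison were the 6 largest terms in each direction and list genes past the threshold. Gene positions were matched by symbol to GENCODE on GRCm38, and promoter stretches to RefSeq. The alternatives changed the thinning, the random draw, the counts or threshold that set the sides, the CD8 gate, other-lineage or dividing cells, the 20% mitochondrial limit (10%), TMM, the test, the filter, the block and the libraries. Python 3.11.15 with numpy 2.4.6 and scipy 1.17.1 was used for the rest.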

Additional observations from a re-analysis of the deposited data

Results flagged for a closer look

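The Cxcr6 contrast differed between CD8+ and conventional CD4+ T cells for 12 genes by the test of the difference itself (edgeR's interaction term, adjusted p under 0.05 over 4766 genes). The values are log2 differences in CD8+ T cells minus those in CD4+ T cells, over 3 libraries.

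The CD8 value minus the CD4 value was above 0 for Ccl3 (1.70, adjusted p = 4.89e-07) and the chemokine-binding receptor Ccrl2 (2.23, adjusted p = 0.039). It was also above 0 for the phosphatase Dusp14 (1.82, adjusted p = 0.023) and the immune-regulatory surface protein Cd200 (1.09, adjusted p = 0.039, all edgeR). Dusp14 was at 0.41 in CD8+ T cells and -1.39 in CD4+ T cells, and Cd200 at 0.42 and -0.61, so that both had opposite signs. For both genes the fall in CD4+ T cells passed the test and the difference in CD8+ T cells did not.

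The CD8 value minus the CD4 value was below 0 for the homeodomain protein Hopx (-2.07, adjusted p = 0.0019) and the interferon-induced membrane protein Ifitm3 (-1.50, adjusted p = 0.010). It was also below 0 for Trbv1 (-1.24, adjusted p = 0.025), Gzmk (-1.13, adjusted p = 0.023) and Tnfrsf4 (-0.98, adjusted p = 0.025). The others were Nkg7 (-0.90, adjusted p = 0.019) and the GTPase Gimap3 (-0.87, adjusted p = 0.043, all edgeR). Tnfrsf4, Gimap3 and Trbv1 were at -0.98, -0.68 and -0.69 in CD8+ T cells and at 0.06, 0.23 and 0.58 in CD4+ T cells. Hopx rose by 1.96 in CD4+ T cells and was at -0.15 in CD8+ T cells. Ifitm3 fell by 1.01 in CD8+ T cells and was at 0.48 in CD4+ T cells. Igkc (-3.81, adjusted p = 4.91e-07) rests on the cell of library 1 with 423 Igkc UMIs, and its difference was -1.73 without that library.

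Ccl3 passed in 6 of 9 alternatives, and each of the others in 2 or 3 of 9. The cause of these differences was not tested.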

How the results depend on the processing

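In CD8+ T cells, 20 of 58 named called genes stayed past the threshold in every alternative that could be fitted other than the one without the block: Ccl3, Ccl4, Ccl5, Ccr7, Gzmb, Havcr2, Il2rb, Il7r, Klf2, Klf3, Klrc1, Klrd1, Lag3, Nkg7, Pdcd1, Prf1, Rgs1, S100a4, S1pr1 and Tcf7. Over all 66 named genes and alternatives, 772 of 1023 values kept direction and side of the threshold, 218 fell short, 27 newly passed and 6 took the other sign. Those were Gzmk, at -0.076 with 2 or more Cxcr6 UMIs, -0.018 at the 10% mitochondrial limit, -0.025 with no block and -0.27 to 0.24 with 1 library left out, and Stmn1, at -0.33 with sides from thinned counts and -0.23 without dividing cells. Another random draw of the thinning ended the calls of 7 named genes, which were Bcl2l15 (0.95), 1700017B05Rik (0.50), Elmsan1 (-0.39), Tox2 (0.66), Batf (0.48), Irf7 (-0.35) and Trav6n-6 (-0.92). The cause was not tested.

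The number of called genes was 761 (374 higher, 387 lower) with no thinning, where 8850 genes were tested, 452 (185 and 267) at 2000 UMIs, and 94 (31 and 63) by DESeq2. With other-lineage cells left out, 62 were higher. With 1 library left out it was 80 to 166 (33 to 72 higher, 47 to 102 lower). With no replicate block, so that the pairing of sides within a library was ignored, edgeR called 0 (0 higher, 0 lower), with 158 at an unadjusted p under 0.05.

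For the difference between CD8+ and CD4+ T cells the number was 88 (50 higher, 38 lower) with no thinning, 21 (16 lower) without TMM, and 2 (1 and 1) without the filter. With sides from thinned counts 2 were higher, and of the 8 called 1 was among the 12. DESeq2 called 0 (0 higher, 0 lower), with 75 at an unadjusted p under 0.05, and edgeR with no replicate block 0 (0 higher, 0 lower), with 58. With 1 library left out it was 2 to 6 (1 to 3 higher, 1 to 3 lower).

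The mean share of CD8+ T cells with a Cxcr6 UMI was 29.2% at 1000 UMIs, 48.9% with no thinning and 54.0% with no thinning in cells with both Cd8a and Cd8b1. The ribosomal share differed by -6.35 percentage points at 2000 UMIs. The 73 Cxcr6+ cells of library 3 limit what it can show for genes under 42.6 CPM.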

Other observations

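Some genes under the filter on low counts were seen mostly on 1 side, and are given as UMIs at matched depth in libraries 1, 2 and 3, without a test. Csf1, the macrophage growth factor, had 49, 11 and 6 UMIs in Cxcr6+ cells and 7, 3 and 1 in Cxcr6- cells. Cd200r1, an inhibitory receptor, had 39, 3 and 3 against 7, 2 and 2. In library 2 it was found in similar shares of Cxcr6+ and Cxcr6- cells (0.54 and 0.44%). Dapl1, a gene of naive-like T cells, had 3, 0 and 0 against 7, 12 and 1, and Bach2, a repressor of effector genes, 7, 4 and 0 against 8, 10 and 7. Zfp683, which encodes the residency factor HOBIT, had 0, 11 and 1 against 0, 3 and 0. Cxcl16 was seen on both sides, with 6, 16 and 0 UMIs in Cxcr6+ cells and 3, 6 and 2 in Cxcr6- cells. The numbers of cells behind these sums were 602, 552 and 73 on the Cxcr6+ side and 330, 452 and 172 on the Cxcr6- side. These genes were picked after their values were seen.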
